A study of Mus musculus with 18 samples.

Results

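The genes described are 9 that act between the B cell antigen receptor (BCR) and its first effectors: Syk, Btk, Blnk, Plcg2, Bcl10, Malt1, Prkcb, Vav1 and Dapp1. They were chosen by symbol, with earlier results of these data known. They were found by Entrez number in the table of exonic read counts, which holds 28096 genes. All 9 passed the filter on low counts, which kept 14161 genes. PolyA RNA was measured by RNASeq in 18 libraries of B cells isolated from the spleens of C57BL/6 N mice at least 8 weeks old. WT cells were compared with Ubqln1-/- cells, which lack exon 2 of the gene for the proteasomal shuttle factor ubiquilin 1 in every cell of the mouse. Cells of each genotype were cultured for 4 hr without stimulation (resting), with anti-IgM F(ab)2 at 10 μg/mL, which crosslinks the BCR, or with LPS of K12 E. coli at 20 μg/mL, which signals through Toll-like receptor 4. Each of the 6 groups held 3 biological replicates, and the wells of a stimulation were pooled into 1 RNA sample. The mice came from ES cells in which the exon had been removed by transient Cre. Whether they trace to 1 ES cell clone is not given in the sources used here.

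The BCR has no kinase activity of its own. When antigen or anti-IgM clusters it, Src family kinases phosphorylate its CD79 chains and the tyrosine kinase SYK docks there. SYK phosphorylates the adaptor BLNK, which brings BTK together with its substrate, phospholipase C gamma 2 (Plcg2). The phospholipase makes diacylglycerol and inositol trisphosphate, and the first of these, with calcium, activates protein kinase C beta (Prkcb). Downstream of that kinase the adaptor BCL10 and the paracaspase MALT1 act together in a complex that leads to NF-κB. VAV1 is an exchange factor for Rac GTPases, and DAPP1 (also called Bam32) is an adaptor that binds the lipid products of PI3K. Engagement of Toll-like receptor 4 by LPS reaches NF-κB mainly through MYD88 and TRIF.

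The 18 libraries held between 15368941 and 41072854 exonic reads, and the counts of the 9 genes ranged from 697 to 40990. Levels are given as CPM, the count scaled to a common library size. Falls and rises below are thus relative to the other mRNAs of a library and are not amounts per cell. Ubqln1 itself stood at 230 to 339 CPM in the WT libraries and at 91.4 to 128 CPM in the Ubqln1-/- libraries. The counts cover the whole gene, including exons that were not deleted. Reads were not examined by exon, so the source of the remaining level was not tested. Each of 6 B cell markers (Ms4a1, Cd79a, Cd79b, Pax5, Cd22 and Ebf1) was present in every library. Their summed level was 5189 to 6375 CPM in WT resting cells, 1748 to 2273 CPM with anti-IgM and 3253 to 4330 CPM with LPS. In WT cells 6 of the 6 were called lower with anti-IgM, and Cd79a, Cd79b and Cd22 were called lower with LPS. The T cell list of 7 genes summed to 1.87 to 2.88 CPM in WT resting cells and to 13.4 to 21.4 CPM with anti-IgM. Nearly all of the latter was Cd5, which some B cells also express, while Cd3e, Cd3d, Cd3g and Cd4 did not exceed 0.319 CPM in any library. The myeloid list, mostly Adgre1, summed to 22 to 49.2 CPM in WT resting cells, 13.7 to 16.4 CPM with anti-IgM and 11.8 to 17.9 CPM with LPS, and the NK and erythroid lists stayed at or under 4.29 CPM. The part of these shifts in the results was not tested. In bulk RNA, fewer cells of a type and less RNA per cell cannot be told apart.

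With anti-IgM, 7 of the 9 mRNAs fell in WT cells and the same 7 fell in Ubqln1-/- cells: Syk, Btk, Blnk, Plcg2, Prkcb, Vav1 and Dapp1. None rose, and Bcl10 and Malt1 did not pass the test. The call of Vav1 was the weakest, lost in 15 of 25 alternatives in WT and in 4 in Ubqln1-/- cells. Of all genes tested, 32.2% were called lower in WT and 32.4% in Ubqln1-/- cells. A gene was called when its adjusted p in edgeR's quasi-likelihood test was under 0.05. The median log2 fold change of the 9 was -0.87 in WT and -0.88 in Ubqln1-/- cells, beside -0.010 and -0.017 over all genes. Syk and Dapp1 fell by more than 1 on the log2 scale in both genotypes, which 11.1% of all genes did in WT and 10.7% in Ubqln1-/- cells. In the plot of CPM by library, the anti-IgM libraries lay below the resting ones without overlap for 6 of the 9 genes in WT. The same held for 7 in Ubqln1-/- cells. Over all genes, 66.2% in WT and 71.3% in Ubqln1-/- cells were without overlap, counting both lower and higher genes.

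With LPS, 6 of the 9 mRNAs fell in each genotype and these were the same 6: Btk, Blnk, Plcg2, Malt1, Vav1 and Dapp1. None rose. Called lower among all genes were 30.1% in WT and 30.2% in Ubqln1-/- cells. The median log2 fold change of the 9 was -0.44 in WT and -0.40 in Ubqln1-/- cells, beside -0.010 and -0.020 over all genes. Btk and Dapp1 fell by more than 1 on the log2 scale in both genotypes, as did 7.94% of all genes in WT and 8.12% in Ubqln1-/- cells. The resting and LPS libraries did not overlap for 6 of the 9 genes in either genotype, beside 62.3% of all genes in WT and 67.6% in Ubqln1-/- cells. Both stimulations were compared with the same resting libraries, so their 2 sets of fold changes are not independent.

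**Figure D1:**
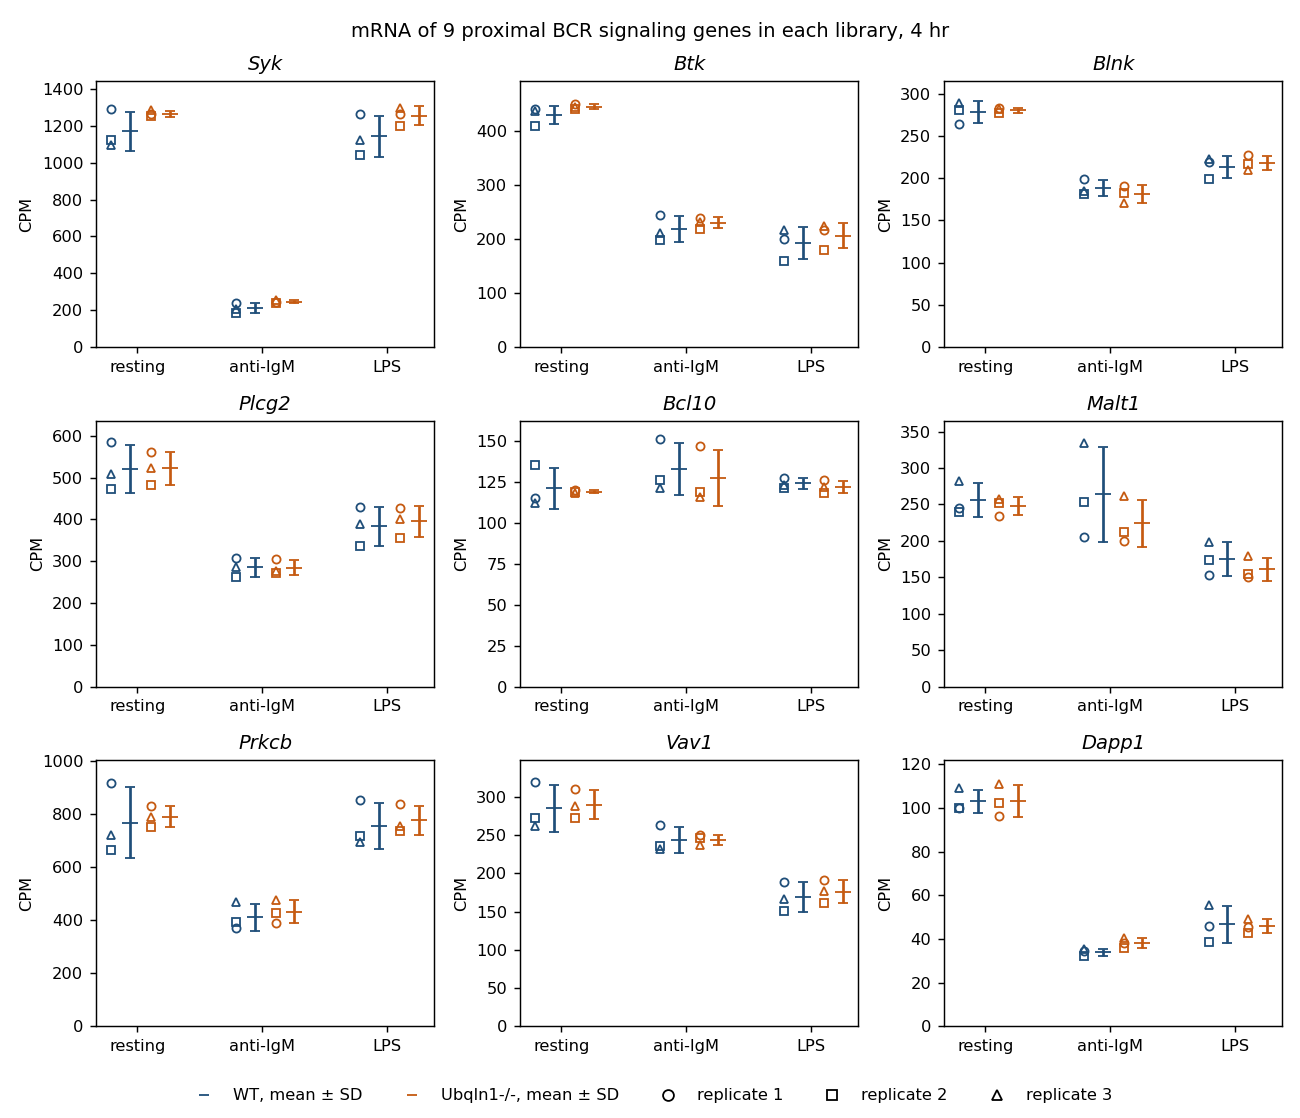
Level of each gene in CPM (reads scaled to library size, linear axes from 0) in each of the 18 libraries, by condition. Open symbols are libraries, coded by replicate number, and bars give the mean ± SD of 3 in WT (blue) and Ubqln1-/- cells (orange). Syk lay at 186 to 254 CPM in the 6 anti-IgM libraries and at 1042 to 1298 CPM in the other 12.

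**Figure D2:**
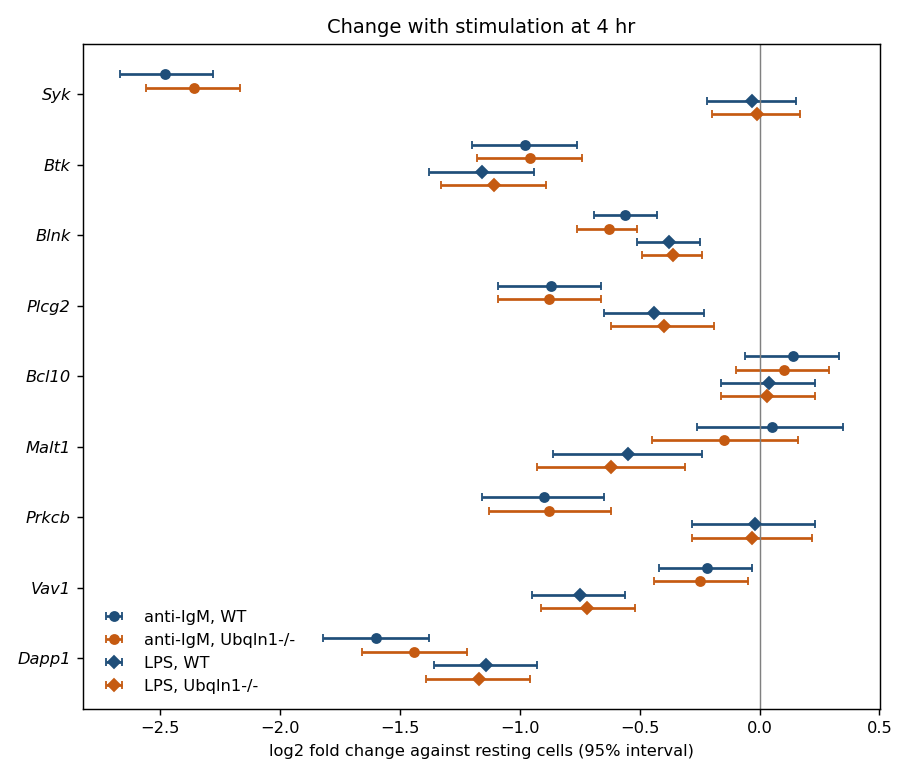
Log2 fold change of each gene against resting cells with its 95% interval, for anti-IgM (circles) and LPS (diamonds) in WT (blue) and Ubqln1-/- cells (orange). The Syk values were -2.48 and -2.36 with anti-IgM and -0.03 and -0.01 with LPS, while the Btk and Dapp1 values lay well below 0 with either stimulation.

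Promoter stretches are shown of Syk, whose response separated the stimulations most, of Btk and Dapp1, which among the genes that fell with both had the largest falls, and of Vav1, which fell more with LPS. They are RefSeq sequences of GRCm38.p6, read 5′ to 3′ on the coding strand and ending at the base before a RefSeq start or, for Syk, before the first base that GENCODE places in an exon. The Syk and Btk stretches lie inside the RefSeq gene spans given below, upstream of an internal start. Those of Dapp1 and Vav1 lie just outside theirs. Capitals mark the motif matches named in the next paragraph.
Syk, second promoter, chr13:52596632-52596852, plus strand: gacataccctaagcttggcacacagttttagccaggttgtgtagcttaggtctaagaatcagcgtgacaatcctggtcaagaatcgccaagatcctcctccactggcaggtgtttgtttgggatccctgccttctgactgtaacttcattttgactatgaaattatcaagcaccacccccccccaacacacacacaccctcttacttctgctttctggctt
Btk, chrX:134583141-134583390, minus strand: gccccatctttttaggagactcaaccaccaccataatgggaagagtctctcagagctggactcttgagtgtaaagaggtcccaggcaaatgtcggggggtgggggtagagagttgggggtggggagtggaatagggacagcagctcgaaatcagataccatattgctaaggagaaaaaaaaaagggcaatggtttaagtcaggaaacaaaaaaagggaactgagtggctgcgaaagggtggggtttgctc
Dapp1, chr3:137981550-137981799, minus strand: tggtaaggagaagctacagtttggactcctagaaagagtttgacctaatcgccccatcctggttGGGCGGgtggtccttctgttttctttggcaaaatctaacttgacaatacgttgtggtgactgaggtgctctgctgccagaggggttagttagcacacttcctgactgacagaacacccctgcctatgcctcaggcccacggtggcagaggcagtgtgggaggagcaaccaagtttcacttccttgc
Vav1, chr17:57278850-57279099, plus strand: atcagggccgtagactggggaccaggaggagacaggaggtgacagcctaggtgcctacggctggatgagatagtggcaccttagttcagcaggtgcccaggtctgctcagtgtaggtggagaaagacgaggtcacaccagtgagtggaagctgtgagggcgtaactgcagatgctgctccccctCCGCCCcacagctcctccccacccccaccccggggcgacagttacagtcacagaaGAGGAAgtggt

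The 250 bases before each RefSeq start were searched on both strands for GAGGAA (the core bound by PU.1 and other ETS factors), TGANTCA (AP-1), the palindromic EBF1 motif, the κB consensus, TGGAAA (NFAT) and GGGCGG (GC box). Starts were found for 8 of the 9 genes, with 2 for Syk. The Vav1 stretch held GAGGAA at bases -11 to -6 from the start and a GC box on the minus strand at -66 to -61. The Dapp1 stretch held 1 GC box at -186 to -181, and the Btk stretch held none of the 6 motifs. The second Syk promoter held GAGGAA at -9 to -4, within the annotated exon that is left out above. Of the others, Plcg2 held 2 GC boxes, Prkcb 1, and Bcl10 2 GC boxes and a κB match, while Blnk and the first Syk promoter held no match. GAGGAA was found in 23.3% of 32851 mouse promoters of this length and the GC box in 32.7%, and 7.25% held the κB consensus. AP-1, EBF1 and NFAT motifs, held by 6.75%, 0.779% and 18.6% of promoters, matched none of the 9 windows.

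Syk encodes the tyrosine kinase that docks at the phosphorylated CD79 chains, and its gene spans chr13:52582610-52648792 (GRCm38). In WT resting cells its 3 libraries held 1291, 1123 and 1095 CPM. With anti-IgM they held 240, 186 and 205 CPM, and with LPS 1263, 1042 and 1122 CPM. The anti-IgM libraries lay far below the others, whereas the resting and LPS libraries overlapped. In Ubqln1-/- cells the values were 1262, 1251 and 1283 CPM at rest, 244, 241 and 254 CPM with anti-IgM, and 1264, 1199 and 1298 CPM with LPS. Syk mRNA thus fell with anti-IgM to between 16.6% and 18.7% of the resting library of the same number in WT cells, and to between 19.3% and 19.8% in Ubqln1-/- cells. The fold change was 5.57-fold lower in WT (log2 fold change -2.48, SE 0.093, adjusted p = 1.75e-11) and 5.14-fold lower in Ubqln1-/- cells (log2 fold change -2.36, SE 0.093, adjusted p = 3.46e-11). Only 146 of the 14161 genes had a lower log2 fold change in WT and 150 in Ubqln1-/- cells. With LPS no change in Syk was found, with 95% intervals of -0.22 to 0.15 in WT and -0.20 to 0.17 in Ubqln1-/- cells on the log2 scale (adjusted p = 0.757 and 0.907).

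Btk encodes the Tec family kinase that activates phospholipase C gamma 2, at chrX:134542334-134583628. WT resting libraries held 441, 410 and 437 CPM, those with anti-IgM 245, 198 and 212 CPM, and those with LPS 200, 159 and 217 CPM. Resting libraries were higher than all stimulated ones, and the stimulations overlapped each other. The Ubqln1-/- libraries held 450, 441 and 445 CPM at rest, 239, 219 and 231 CPM with anti-IgM, and 216, 180 and 224 CPM with LPS. With anti-IgM Btk fell to 50.8% of its resting level in WT (log2 fold change -0.98, SE 0.10, adjusted p = 3.92e-07) and 51.6% in Ubqln1-/- cells (-0.96, SE 0.10, adjusted p = 5.15e-07). With LPS it fell to 44.8% in WT (log2 fold change -1.16, SE 0.10, adjusted p = 1.08e-07) and 46.3% in Ubqln1-/- cells (-1.11, SE 0.10, adjusted p = 1.72e-07). With LPS the falls of Btk and Dapp1 were the largest of the 9 on the log2 scale.

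Prkcb, at chr7:122289104-122634402, encodes a kinase that diacylglycerol and calcium activate. Its WT libraries held 920, 664 and 722 CPM at rest, 372, 392 and 469 CPM with anti-IgM, and 856, 717 and 694 CPM with LPS. In Ubqln1-/- cells they held 833, 752 and 791 CPM at rest, 391, 426 and 477 CPM with anti-IgM, and 838, 736 and 758 CPM with LPS. Like Syk, Prkcb was low in the anti-IgM libraries and overlapped between rest and LPS, but its drop was smaller. It fell to 53.5% of the resting level with anti-IgM in WT (log2 fold change -0.90, SE 0.12, adjusted p = 4.87e-06) and to 54.5% in Ubqln1-/- cells (-0.88, SE 0.12, adjusted p = 6.80e-06). With LPS the 95% intervals were -0.28 to 0.23 in WT and -0.28 to 0.22 in Ubqln1-/- cells (adjusted p = 0.873 and 0.858).

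Plcg2, at chr8:117498275-117635142, encodes the phospholipase that BTK and SYK phosphorylate. In WT cells its libraries held 584, 472 and 508 CPM at rest, 307, 261 and 287 CPM with anti-IgM, and 429, 336 and 389 CPM with LPS. In Ubqln1-/- cells they held 561, 483 and 522 CPM, then 305, 272 and 276 CPM, and then 428, 356 and 402 CPM in the same order. The conditions formed a series without overlap in each genotype, highest at rest and lowest with anti-IgM. Plcg2 fell by 0.87 on the log2 scale with anti-IgM in WT (SE 0.10, adjusted p = 1.16e-06) and by 0.88 in Ubqln1-/- cells (SE 0.10, adjusted p = 1.12e-06). With LPS it fell by 0.44 in WT (SE 0.10, adjusted p = 0.00127) and by 0.40 in Ubqln1-/- cells (SE 0.10, adjusted p = 0.00257).

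Blnk, at chr19:40928927-40994221, encodes the adaptor on which BTK and phospholipase C gamma 2 meet. WT libraries held 264, 280 and 289 CPM at rest, 199, 181 and 185 CPM with anti-IgM, and 219, 199 and 222 CPM with LPS. Ubqln1-/- libraries held 283, 277 and 282 CPM, then 191, 182 and 170 CPM, and then 227, 217 and 210 CPM. Resting libraries were above all stimulated ones, by less than for the kinases Syk and Btk with anti-IgM. The log2 fold changes with anti-IgM were -0.56 in WT (SE 0.061, adjusted p = 4.64e-07) and -0.63 in Ubqln1-/- cells (SE 0.061, adjusted p = 1.19e-07). With LPS they were -0.38 (SE 0.060, adjusted p = 4.12e-05) and -0.36 (SE 0.060, adjusted p = 6.96e-05).

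Dapp1, at chr3:137931007-137981549, encodes the PI3K-dependent adaptor and had the lowest CPM of the 9. Its WT libraries held 100, 100 and 109 CPM at rest, 34.3, 32.1 and 35.3 CPM with anti-IgM, and 46.1, 38.6 and 55.3 CPM with LPS. Its Ubqln1-/- libraries held 96.4, 102 and 111 CPM, then 38.2, 35.7 and 40.4 CPM, and then 45.4, 42.8 and 49.3 CPM. All 12 stimulated libraries lay far below the 6 resting ones. With anti-IgM Dapp1 was 3.04-fold lower in WT (log2 fold change -1.60, SE 0.10, adjusted p = 1.97e-09) and 2.71-fold lower in Ubqln1-/- cells (-1.44, SE 0.10, adjusted p = 5.58e-09). With LPS it was 2.21-fold lower in WT (log2 fold change -1.14, SE 0.10, adjusted p = 8.84e-08) and 2.25-fold lower in Ubqln1-/- cells (-1.17, SE 0.10, adjusted p = 7.75e-08).

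Vav1, at chr17:57279100-57329236, encodes the Rac exchange factor. WT libraries held 320, 272 and 262 CPM at rest, 264, 236 and 232 CPM with anti-IgM, and 189, 151 and 167 CPM with LPS. Ubqln1-/- libraries held 310, 273 and 288 CPM, then 250, 246 and 237 CPM, and then 191, 161 and 177 CPM. The LPS libraries were the lowest, and the WT resting and anti-IgM libraries overlapped narrowly. With LPS Vav1 fell to 59.3% in WT (log2 fold change -0.75, SE 0.093, adjusted p = 2.87e-06) and 60.8% in Ubqln1-/- cells (-0.72, SE 0.093, adjusted p = 5.00e-06). The fall with anti-IgM was small, -0.22 in WT (SE 0.092, adjusted p = 0.0444) and -0.25 in Ubqln1-/- cells (SE 0.092, adjusted p = 0.0257). It did not hold up in WT under 15 of 25 other ways of processing, where adjusted p ranged from 0.0504 to 0.249, nor in Ubqln1-/- cells under 4, where it ranged from 0.0607 to 0.134. The WT value was -0.13 without WT resting replicate 1 (adjusted p = 0.249), and -0.24 to -0.18 without WT resting replicate 2, WT anti-IgM replicate 2 or 3, WT LPS replicate 3, any Ubqln1-/- resting or anti-IgM library, or Ubqln1-/- LPS replicate 1 or 3. The Ubqln1-/- value was -0.24 to -0.19 without Ubqln1-/- resting replicate 1 or anti-IgM replicate 2 or 3.

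Bcl10, at chr3:145924262-145934366, encodes the adaptor that works with MALT1. Its WT libraries held 115, 135 and 112 CPM at rest, 151, 126 and 121 CPM with anti-IgM, and 127, 121 and 123 CPM with LPS, and its Ubqln1-/- libraries held 120, 119 and 118 CPM, then 147, 119 and 116 CPM, and then 126, 118 and 122 CPM. The 3 conditions overlapped in each genotype, and replicate 1 stood highest with anti-IgM in both. The log2 fold change with anti-IgM was 0.14 in WT (95% interval -0.06 to 0.33, adjusted p = 0.214) and 0.10 in Ubqln1-/- cells (-0.10 to 0.29, adjusted p = 0.381). Without WT resting replicate 2, the highest resting library, the WT value was 0.23 (adjusted p = 0.0476). With LPS it was 0.04 in WT (95% interval -0.16 to 0.23) and 0.03 in Ubqln1-/- cells (-0.16 to 0.23).

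Malt1, on chromosome 18, encodes the protease of the same complex. Its WT libraries held 245, 240 and 282 CPM at rest, 205, 253 and 335 CPM with anti-IgM, and 153, 174 and 199 CPM with LPS. Its Ubqln1-/- libraries held 234, 252 and 258 CPM, then 200, 212 and 261 CPM, and then 150, 154 and 179 CPM. The anti-IgM libraries were the most scattered and overlapped the resting ones, and the LPS libraries lay below both. The 95% intervals with anti-IgM were -0.26 to 0.35 in WT and -0.45 to 0.16 in Ubqln1-/- cells (adjusted p = 0.799 and 0.393). With LPS Malt1 fell to 68.4% of the resting level in WT (log2 fold change -0.55, SE 0.15, adjusted p = 0.00387) and to 64.9% in Ubqln1-/- cells (-0.62, SE 0.15, adjusted p = 0.00154).

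The stimulations were also set against each other, a contrast whose means come from the stimulated libraries while the estimate of spread is shared by all 18. Of the 9 mRNAs, 5 were higher with LPS than with anti-IgM in WT cells (Syk, Blnk, Plcg2, Prkcb and Dapp1) and 2 were lower (Malt1 and Vav1). In Ubqln1-/- cells 4 were higher, without Dapp1, and the same 2 were lower. Over all genes 17.4% were called higher and 15.0% lower in WT, and 16.8% higher and 14.5% lower in Ubqln1-/- cells. The libraries did not overlap for 6 of the 9 in WT and 7 in Ubqln1-/- cells, beside 40.6% and 46.5% of all genes. Syk differed by far the most, at 5.44-fold higher with LPS in WT (log2 fold change 2.44, SE 0.093, adjusted p = 1.53e-11) and 5.09-fold in Ubqln1-/- cells (2.35, SE 0.093, adjusted p = 1.95e-11). Prkcb followed at 1.84-fold in WT (log2 fold change 0.88, adjusted p = 1.99e-05) and 1.80-fold in Ubqln1-/- cells (0.85, adjusted p = 3.22e-05). Plcg2 was higher with LPS by 0.43 in WT (adjusted p = 0.00316) and 0.47 in Ubqln1-/- cells (adjusted p = 0.00163).

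In the same comparison Vav1 was lower with LPS, at log2 fold changes of -0.53 in WT (adjusted p = 2.40e-04) and -0.47 in Ubqln1-/- cells (adjusted p = 7.99e-04). Malt1 was lower at -0.59 in WT (adjusted p = 0.00454) and -0.48 in Ubqln1-/- cells (adjusted p = 0.0198), and without Ubqln1-/- anti-IgM replicate 3, its highest library there, the latter was -0.36 (adjusted p = 0.102). It was also missed without Ubqln1-/- LPS replicate 1 (-0.43, adjusted p = 0.0734) or 2 (-0.45, adjusted p = 0.0649). Dapp1 was higher by 0.46 in WT (adjusted p = 0.00209) and by 0.27 in Ubqln1-/- cells, where the test was missed (adjusted p = 0.0582) but passed with the replicate number as a block (adjusted p = 0.00426) and without WT LPS replicate 2 (adjusted p = 0.0189) or 3 (adjusted p = 0.0183). Blnk was higher by 0.18 in WT (adjusted p = 0.0297) and 0.27 in Ubqln1-/- cells (adjusted p = 0.00235). The WT value of Blnk was not called in 7 of 25 alternatives, among them those without WT anti-IgM replicate 2 (0.15, adjusted p = 0.128) or 3 (0.16, adjusted p = 0.123), WT LPS replicate 1 (0.16, adjusted p = 0.101) or 3 (0.15, adjusted p = 0.109), or Ubqln1-/- resting replicate 1 (0.18, adjusted p = 0.053). Btk did not pass in WT (-0.18, 95% interval -0.40 to 0.04, adjusted p = 0.198), but did with the replicate block (-0.19, adjusted p = 0.0379). In Ubqln1-/- cells the Btk interval was -0.37 to 0.06 and that of Bcl10 was -0.26 to 0.13, and in WT that of Bcl10 was -0.30 to 0.10.

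To ask whether loss of Ubqln1 altered these mRNAs, the genotypes were compared within each condition. None of the 9 was called at rest, with anti-IgM or with LPS by edgeR, and limma and DESeq2 also called 0. Over all genes edgeR called 0.0565%, 0.0989% and 0.0424%, that is 8, 14 and 6 genes. With the replicate number as a block it called 94 genes with anti-IgM and 125 with LPS, and still 0 of the 9. At rest all 9 log2 fold changes of Ubqln1-/- over WT lay between -0.05 (Malt1) and 0.11 (Syk), and their 95% intervals between -0.35 and 0.30. With LPS they lay between -0.12 (Malt1) and 0.13 (Syk), with intervals between -0.43 and 0.32. With anti-IgM they lay between -0.24 (Malt1) and 0.23 (Syk), with intervals between -0.55 and 0.42.

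The gene with the smallest unadjusted p between genotypes was Syk with anti-IgM, the only one of the 9 under 0.05 in any condition. It was at 240, 186 and 205 CPM in WT and 244, 241 and 254 CPM in Ubqln1-/- cells, 1.17-fold higher in the latter (log2 fold change 0.23, 95% interval 0.04 to 0.42, unadjusted p = 0.0198, adjusted p = 0.802). These groups did not overlap, nor did those of Dapp1 with anti-IgM (log2 fold change 0.17, 95% interval -0.05 to 0.39, adjusted p = 0.997). Over all genes 11.4% did not overlap between genotypes with anti-IgM. The summed level of the plasma cell list, mostly Jchain, was lower in every Ubqln1-/- library than in any WT library of its condition. This sum was not tested between genotypes. It was 252 to 465 CPM in WT and 185 to 215 CPM in Ubqln1-/- cells at rest, 214 to 405 and 154 to 187 CPM with anti-IgM, and 146 to 329 and 98 to 130 CPM with LPS. Its part in these comparisons was not tested.

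The difference between genotypes in the response itself was then tested as an interaction. For anti-IgM and for LPS 0 of the 9 genes were called by edgeR, 0 were under 0.05 unadjusted, and limma and DESeq2 called 0. Over all genes 0% were called in either interaction. For anti-IgM the Syk interaction was 0.12 (95% interval -0.15 to 0.38), that of Dapp1 0.16 (-0.14 to 0.47) and that of Blnk -0.07 (-0.25 to 0.11). The widest interval was that of Malt1, -0.63 to 0.24. For LPS all 9 interactions lay between -0.08 (Malt1) and 0.05 (Btk), with intervals between -0.51 and 0.36.

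**Figure D3:**
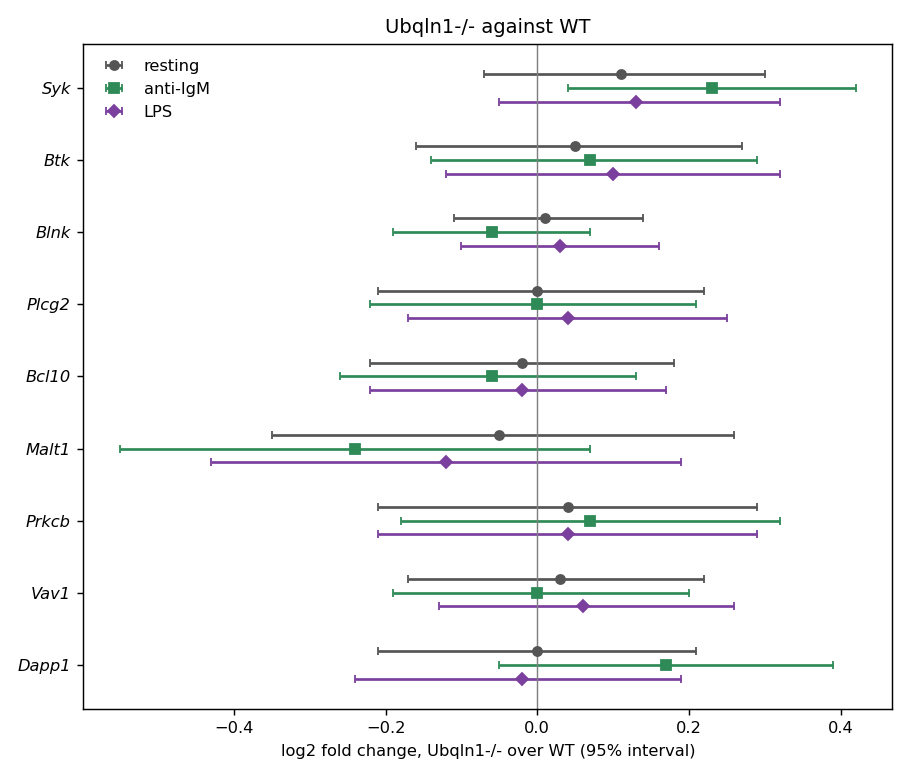
Log2 fold change of Ubqln1-/- over WT cells with its 95% interval, for each gene at rest (circles), with anti-IgM (squares) and with LPS (diamonds). All intervals hold 0 except that of Syk with anti-IgM, 0.04 to 0.42, which did not pass after adjustment over all genes.

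Levels of different genes were compared as RPKM (reads scaled by exonic length and by library size), computed here from the counts. The lengths are the deposited ones, and for every gene but Plcg2 (4298 in both) they differ from the exonic bases of GENCODE. Syk has 5272 against 9362, Blnk 2097 against 5991, Malt1 5008 against 18040 and Prkcb 8830 against 7651. Bcl10 has 1760 against 4564, Btk 2535 against 3149, Vav1 4168 against 3688 and Dapp1 3088 against 4124. The order of the genes below depends on these lengths, and the order on GENCODE lengths was not computed. Every rank given here, also the first place of Syk and the last of Dapp1, is stated for the deposited lengths only. In WT resting cells Syk ranked first at 222 ± 20.1 RPKM (SD, n = 3), followed by Btk (169 ± 6.55), Blnk (132 ± 6.13), Plcg2 (121 ± 13.4) and Prkcb (87.1 ± 15.2). Bcl10 (68.6 ± 7.09), Vav1 (68.3 ± 7.50), Malt1 (51.1 ± 4.60) and Dapp1 (33.3 ± 1.67) came after them. Among neighbours in this order the libraries of Blnk and Plcg2, of Prkcb and Bcl10, and of Bcl10 and Vav1 overlapped. With anti-IgM Syk dropped to rank 8, at 39.8 ± 5.17 RPKM, and only Dapp1 (11 ± 0.534) was lower. Blnk (89.8 ± 4.69) and Btk (86.1 ± 9.54) then stood highest, and all neighbours down to Syk overlapped. With LPS Syk was again first (217 ± 21.3), well above Blnk (102 ± 6.06), and Btk was in place 5 (75.8 ± 11.7). In Ubqln1-/- cells Syk was also first at rest (240 ± 3.12) and with LPS (238 ± 9.59) and ranked 7 with anti-IgM (46.7 ± 1.31). On the deposited lengths Dapp1 was last in all 6 groups.

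**Figure D4:**
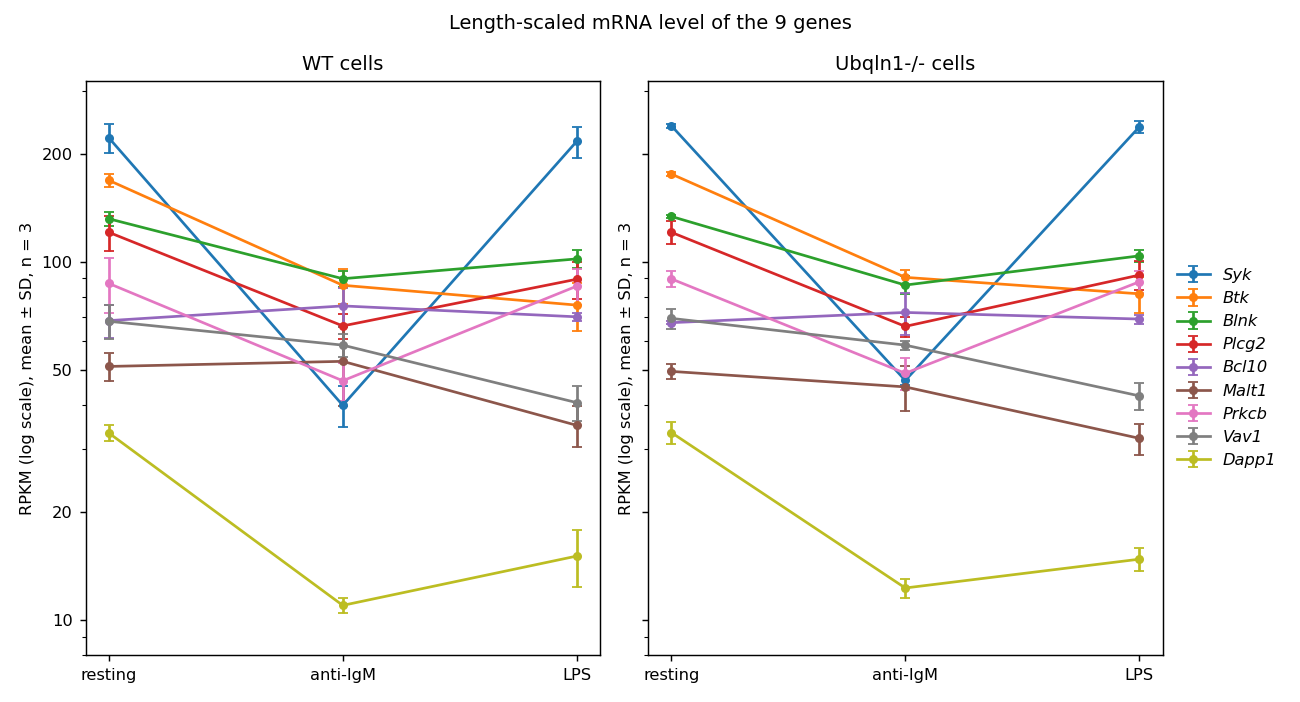
Mean RPKM ± SD (n = 3, log axis) of the 9 genes at rest, with anti-IgM and with LPS in WT (left) and Ubqln1-/- cells (right), with lines linking the groups of a gene. On the deposited exonic lengths, Syk moves from rank 1 at rest to rank 8 with anti-IgM in WT (222 to 39.8 RPKM). With LPS it is back at rank 1 (217).

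Across the 18 libraries the 9 genes did not share a single pattern. Syk and Prkcb had a Pearson correlation of log2 CPM of 0.96, Blnk and Plcg2 of 0.95, Blnk and Dapp1 of 0.95, and Btk and Dapp1 of 0.92. Syk and Vav1 stood at -0.17 and Syk and Btk at 0.39. These points share libraries, depth and conditions, so the coefficients are descriptions. Among 9101 genes with a mean of at least 10 CPM, those most like Syk were Sting1 (0.996), which encodes a sensor of cyclic dinucleotides, Lsp1 (0.995) and Ltb (0.995), which encodes lymphotoxin beta. Their log2 fold changes in WT were -2.01, -1.68 and -2.51 with anti-IgM and 0.07, -0.08 and 0.13 with LPS. Those most like Prkcb were Ccdc88c (0.985), the receptor gene Tlr9 (0.972) and Pax5 (0.970), which encodes a transcription factor of B cell identity. Btk was most like Fgd3 (0.990), Plekhm1 (0.989) and Add3 (0.988), and Dapp1 was most like Trim7 (0.996), Marchf1 (0.994) and Mindy1 (0.993). For the other genes the closest were Acsf2 for Blnk (0.984), Arhgap4 for Plcg2 (0.993), Slc36a1 for Vav1 (0.981) and Ndfip2 for Malt1 (0.957). Bcl10 had no match above Tmem14c (0.813).

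The 9 genes were set beside 8 lists of other BCR pathway genes, 107 in all, of which 106 were tested. With anti-IgM 55 of these fell and 23 rose in WT cells, and 56 fell and 22 rose in Ubqln1-/- cells (median log2 fold changes -0.25 and -0.27). With LPS 51 fell and 25 rose in WT, and 50 fell and 24 rose in Ubqln1-/- cells (medians -0.24 and -0.28). Called higher over all genes were 32.4% and 32.9% with anti-IgM and 31.2% and 30.6% with LPS, in WT and Ubqln1-/- cells. Called lower over all genes were 32.2% and 32.4% with anti-IgM and 30.1% and 30.2% with LPS. The counts of the single lists below stand beside the same shares, and no list was tested against them. None of the 106 was called between genotypes.

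**Figure D5:**
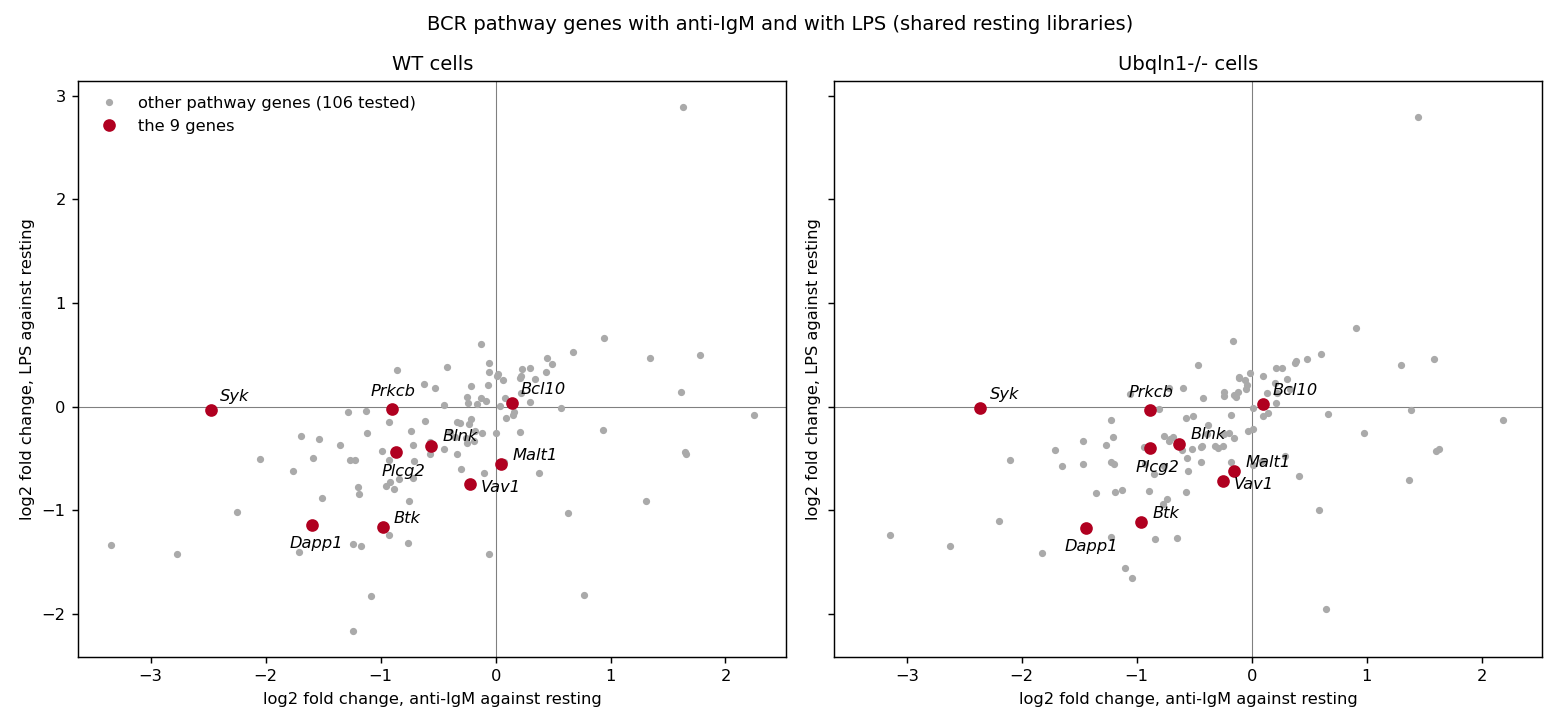
Log2 fold change against resting cells with anti-IgM (horizontal) and LPS (vertical) for the 9 genes (red) and the 106 other pathway genes tested (grey), in WT (left) and Ubqln1-/- cells (right). Syk and Prkcb lie on the horizontal line of no LPS change, and Btk and Dapp1 lie low on both axes. The axes share the resting libraries.

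Of 8 other tyrosine kinases listed, of the Src and Tec families with the Syk paralog Zap70, 2 fell with anti-IgM in WT and 3 rose. Over all genes in WT, 32.2% were called lower and 32.4% higher with anti-IgM. Lyn, the Src kinase best known for phosphorylating the BCR, fell from 408 to 178 CPM in WT (log2 fold change -1.20, adjusted p = 1.13e-08) and from 414 to 189 CPM in Ubqln1-/- cells, while Fyn rose from 162 to 773 CPM in WT (2.25, adjusted p = 4.45e-06) and from 142 to 646 CPM in Ubqln1-/- cells. Lck rose as well, from 50.3 to 157 CPM in WT (log2 fold change 1.65, adjusted p = 1.97e-05). Beside Blnk and Dapp1, 6 of 13 adaptors fell and 3 rose with anti-IgM in WT. Bank1, a B cell scaffold, went from 574 to 138 CPM (log2 fold change -2.05), and Nck2 fell by 1.13, whereas Pik3ap1 (BCAP), which recruits PI3K, went from 185 to 565 CPM (1.61) and Stap1 from 83 to 210 CPM (1.34). With LPS Lat2 (-1.24) and Sh3bp2 (-1.03) fell.

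Among other genes of phospholipase, calcium and NFAT signaling, 12 of 18 fell with anti-IgM and 15 of 18 fell with LPS in WT. Over all genes in WT, 32.2% were called lower with anti-IgM and 30.1% with LPS. Dgka, a kinase that removes diacylglycerol, fell from 390 to 57 CPM with anti-IgM (log2 fold change -2.77) and to 146 CPM with LPS (-1.42), and with anti-IgM the inositol trisphosphate receptor Itpr3 (-1.76) and the calcineurin subunit Ppp3ca (-1.54) fell. Orai2 (-1.34) and Itpkb (-1.31) fell with LPS. Orai2 fell by more than 1 with anti-IgM too (-1.17), beyond the 3 largest falls named there. The calcium channel Orai1 rose with anti-IgM from 38.8 to 133 CPM (1.78). Beside Prkcb, 2 of the 6 other protein kinase C genes tested fell and 2 rose with anti-IgM in WT, and Prkce fell by 1.12. In the list around the complex of Bcl10 and Malt1 and the activation of IKK, 6 of 14 fell and 4 rose with anti-IgM in WT, and 5 fell and 8 rose with LPS. Casp8 fell by 1.22 with anti-IgM. Tnfaip3, which encodes the NF-κB inhibitor A20, rose from 82 to 254 CPM with anti-IgM (1.63) and to 610 CPM with LPS (2.89).

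Beside Vav1, 14 of 21 exchange factors, GTPases and MAP kinases fell and 3 rose with anti-IgM in WT, and 9 fell and 6 rose with LPS. The shares over all genes in WT were 32.2% lower and 32.4% higher with anti-IgM, and 30.1% and 31.2% with LPS. Rasgrp2 fell from 361 to 35.4 CPM with anti-IgM (log2 fold change -3.35), and Rasgrp1 (-1.71) and Rasgrp3 (-1.69), which activate Ras on binding diacylglycerol, fell too. Vav3, a paralog of Vav1, rose from 17.8 to 56.2 CPM (1.66, adjusted p = 5.40e-06). With LPS Rasgrp1 (-1.40) and Rasgrp2 (-1.33) fell. Of 14 PI3K pathway genes 7 fell and 3 rose with either stimulation in WT, led with anti-IgM by Pik3cg (-2.25), Plekha2 (-1.59) and Pik3r2 (-1.51), and Pik3cg fell by 1.02 with LPS. Of 12 negative regulators 6 fell with either stimulation in WT and 3 rose with anti-IgM and 2 with LPS. Cblb (-1.28), Sla (-1.24) and Dok3 (-1.08) fell and Ubash3b (1.31) rose with anti-IgM, and Dok3 (-1.83), Ptpn22 (-1.82) and Sla (-1.32) fell with LPS. Each gene named here moved in the same direction in Ubqln1-/- cells, past the same limits.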

How the data were processed

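RNASeq of 18 polyA libraries (unstranded TruSeq v2, single reads of 50 bases) was used. The authors mapped reads to GRCm38 with GSNAP and deposited, per library and Entrez gene, the exonic read count, the gene width and the RPKM. The counting program and annotation release are not given in the sources used here. Groups and replicate numbers came from the sample labels, where the replicate without a number was taken as 1. The 9 genes and all lists were chosen with earlier results of these data known.

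Counts were fitted with edgeR 4.0.16 (R 4.3.3; TMM, filterByExpr, glmQLFit and glmQLFTest) over all 18 libraries with one term per group. P-values were adjusted by Benjamini-Hochberg over the 14161 genes tested, called under 0.05. All tests were two-sided. CPM and RPKM were scaled by TMM, and the deposited RPKM was an alternative. limma 3.58.1 with voom, DESeq2 1.42.0, RLE factors, other filters, a replicate block, fewer groups and leaving out each library were alternatives. Named pathway genes were those called with an absolute log2 fold change over 1 in both genotypes, at most 3 per list, stimulation and direction. Some genes of the marker and pathway lists are not reported here and were left out of the counts and sums of those lists. The scripts were tested on simulated data.

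Deviations of same-numbered libraries from their group means correlated above 0.1 for all 3 pairs in every comparison except Ubqln1-/- against WT at rest (lowest 0.083), so the numbers were read as pairing the libraries elsewhere. The study describes 3 independent experiments. The main fit did not use this pairing, so its SEs, intervals and p-values count shifts between experiments as spread. The replicate block, which does use it, was run as an alternative. No exon of the 9 genes overlaps an exon of another GENCODE gene.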

Additional observations from a re-analysis of the deposited data

How the results depend on the processing

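The number of the 9 genes called stayed within 1.5 times its value under all 25 alternatives for each comparison, at 6 to 7 with anti-IgM, 6 with LPS, 6 to 8 (WT) and 5 to 7 (Ubqln1-/-) between stimulations, and 0 between genotypes and in the interactions. Of 2475 log2 fold changes recomputed, 2440 kept their call and direction, 29 lost the call, 6 gained it and 0 called values reversed, while 155 uncalled values changed sign. The lost calls were those of Vav1 with anti-IgM, and of Blnk (WT) and Malt1 (Ubqln1-/-) between stimulations. Malt1 was lost there in 3 alternatives, at adjusted p between 0.0649 and 0.102. The gained ones were Bcl10 with anti-IgM in 1 alternative, and Btk in 1 and Dapp1 in 4 between stimulations. The cause was not tested. The replicate block, under which the WT and Ubqln1-/- counts between stimulations were 8 and 7, changed no call of the 9 other than those of Btk and Dapp1. Over all genes, calls between genotypes at rest, with anti-IgM and with LPS were 8, 14 and 6 with edgeR, 6, 18 and 5 with limma, 32, 47 and 51 with DESeq2, and 49, 94 and 125 with the block. Deposited RPKM was 83.8% to 89% of the RPKM used here. The smallest difference between genotypes that 3 libraries a group can show was not measured.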
